A study of Mus musculus with 10 samples.

Results

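This is an account of 42 interferon-stimulated antiviral genes in the whole esophagus of mice with experimental eosinophilic esophagitis, an allergic disease in which eosinophils accumulate in the esophageal wall. The 42 were chosen by symbol and known function out of the 54446 gene rows of the table: effectors that act on viral RNA or nucleotides, cytosolic sensors, interferon-regulated factors, membrane restriction proteins and immunity-related GTPases. Guanylate-binding proteins, the Ifi200 family and antigen-presentation genes were left out by the rule. The rule uses no measured value. All 42 symbols were found, 41 passed the filter of a mean of at least 5 normalized counts over the 10 libraries, and Tgtp1 did not.

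All 10 libraries were made from the esophagus of wild-type mice on the C57BL/6 strain by CEL-Seq, which captures polyadenylated transcripts and reads them near their 3′ ends. The 5 control libraries (A1 to A5) came from mice given vehicle, and the other 5 (C1 and D1 to D4) from mice put through the model with oxazolone (OXA, a skin-sensitising hapten). The age and sex of the mice, the dose and timing of OXA and the meaning of the letters A, C and D were not given in the sources used here. The letter and the treatment cannot be told apart. Nothing in the labels says whether a library is 1 mouse or a pool, so p-values reflect the variation among these libraries, which may be technical. Values are normalized counts, that is reads scaled by 1 size factor per library. Depth ran from 3675479 (D2) to 12108822 (A4) reads. D2, D4 and A5 were the shallowest libraries, and 1 read was worth 0.519 (A4) to 1.81 (D2) normalized counts. The defining keratins of the tissue were present in every library: the summed level of 8 epithelial markers, among them Krt4 and Krt13 of the differentiated layers, was 590644 to 1001040.0 normalized counts in vehicle and 217112 to 533429 in OXA.

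Interferons are secreted cytokines that switch on a shared antiviral programme. Type I and type III interferons signal through a complex that contains STAT2 and IRF9 and binds the interferon-stimulated response element (ISRE) in front of its target genes. Interferon gamma, made mainly by T cells and NK cells, acts on its target genes through the gamma-activated site (GAS). Many target genes can be driven by either route, and several of the products, such as IRF7 and the RNA sensors, feed back to make more interferon.

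The promoter sequences show those elements directly. RefSeq windows on GRCm38.p6, from 250 bases before to 50 bases after the annotated start, were given for 31 of the 42 genes. The core searched for the ISRE was GAAANNGAAA and that for the GAS was TTCNNNGAA, each on both strands; the GAS letters read the same on either strand apart from the free bases, and a base may belong to both motifs. Of the 31 genes 15 (48.4%) held an ISRE core, against 3.99% of the 27025 genes with a window. Some genes had more than 1 window (32851 windows in all), and a match in any of them counted. A GAS was found in 9 of the 31 (29.0%), against 9.55% of all genes, and both elements in 6 (19.4%), against 0.614%. The 6 with both were Bst2, Ifitm3, Igtp, Irgm2, Oas1a and Tgtp1. Below are 4 of the windows, shown because they differ in which elements they hold, and because Isg15 did not pass the test described next while the other 3 genes did. Capitals mark the motif matches, and each sequence reads 5′ to 3′ on the strand of its gene.

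Isg15: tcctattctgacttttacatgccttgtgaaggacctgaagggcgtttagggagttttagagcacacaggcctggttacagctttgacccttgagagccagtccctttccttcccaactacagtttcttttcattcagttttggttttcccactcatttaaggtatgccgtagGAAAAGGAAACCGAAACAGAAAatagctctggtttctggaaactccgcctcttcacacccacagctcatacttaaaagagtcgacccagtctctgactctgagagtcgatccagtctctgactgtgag

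Ifit1: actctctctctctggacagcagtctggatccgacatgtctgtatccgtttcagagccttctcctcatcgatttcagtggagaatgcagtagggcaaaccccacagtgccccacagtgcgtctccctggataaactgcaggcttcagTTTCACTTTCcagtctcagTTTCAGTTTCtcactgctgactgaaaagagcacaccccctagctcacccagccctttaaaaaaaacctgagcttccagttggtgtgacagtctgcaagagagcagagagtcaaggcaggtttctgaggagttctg

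Igtp: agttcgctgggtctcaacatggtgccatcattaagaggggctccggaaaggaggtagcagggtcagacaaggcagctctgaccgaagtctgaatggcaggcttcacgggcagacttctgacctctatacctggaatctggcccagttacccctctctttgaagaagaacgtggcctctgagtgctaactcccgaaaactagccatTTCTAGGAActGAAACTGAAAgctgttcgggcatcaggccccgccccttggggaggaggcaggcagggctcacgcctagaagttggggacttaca

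Samhd1: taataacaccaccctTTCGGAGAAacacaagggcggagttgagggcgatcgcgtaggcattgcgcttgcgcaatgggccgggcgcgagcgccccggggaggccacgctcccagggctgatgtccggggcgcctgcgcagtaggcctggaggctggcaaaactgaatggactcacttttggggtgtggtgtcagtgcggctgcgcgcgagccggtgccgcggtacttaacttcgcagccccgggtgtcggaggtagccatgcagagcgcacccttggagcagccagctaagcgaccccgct

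The Isg15 window (chr4:156200769-156201068, minus strand) held 3 overlapping ISRE cores that begin 78, 72 and 66 bases before the start. The Ifit1 window (chr19:34640639-34640938, plus strand) held 2 cores on the reverse strand, so that they read TTTCACTTTC and TTTCAGTTTC here. Igtp (chr11:58199306-58199605, plus strand) had a GAS and, next to it, 1 ISRE core. Samhd1 (chr2:157135047-157135346, minus strand) had a GAS near the far end of its window and no ISRE core. A match describes letters only, and no binding was measured. An ISRE core stood in 12 of the 23 genes with a window that rose in OXA and in 2 of the 7 with a window that did not pass the test.

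Most of the genes were higher in OXA. Of the 41 tested, 28 rose, 0 fell and 13 did not pass the test (limma on log2 of the normalized count plus 1, adjusted p under 0.05). Over all 14712 genes tested, 15.7% rose and 14.2% fell. The median log2 difference, OXA minus vehicle, was 1.79 over the 41 genes and -0.01 over all genes tested. Among the 28 the log2 difference ran from 0.91 (Ifitm3) to 3.15 (Zbp1). Of the 13 that did not pass, 12 had a positive estimate and 1, Ifi27, a negative one. In 18 of the 41 every OXA library lay above every vehicle library, against 12.0% of all genes tested; in 0 did every OXA library lie below, against 10.4%. The other 10 genes that rose overlapped between the groups. On the recovered reads, edgeR's quasi-likelihood test called 23 of the 41 higher (16.4% of all genes) and DESeq2 24 (17.9%), each with 0 lower, and the median log2 difference was 1.19 and 1.23. On CPM, that is reads scaled by the library total alone, the median log2 difference of all genes moved from -0.01 to 0.11 and the share of calls that were higher from 52.5% to 65.3%; on that scale 33 of the 41 rose and their median was 1.58.

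**Figure D1:**
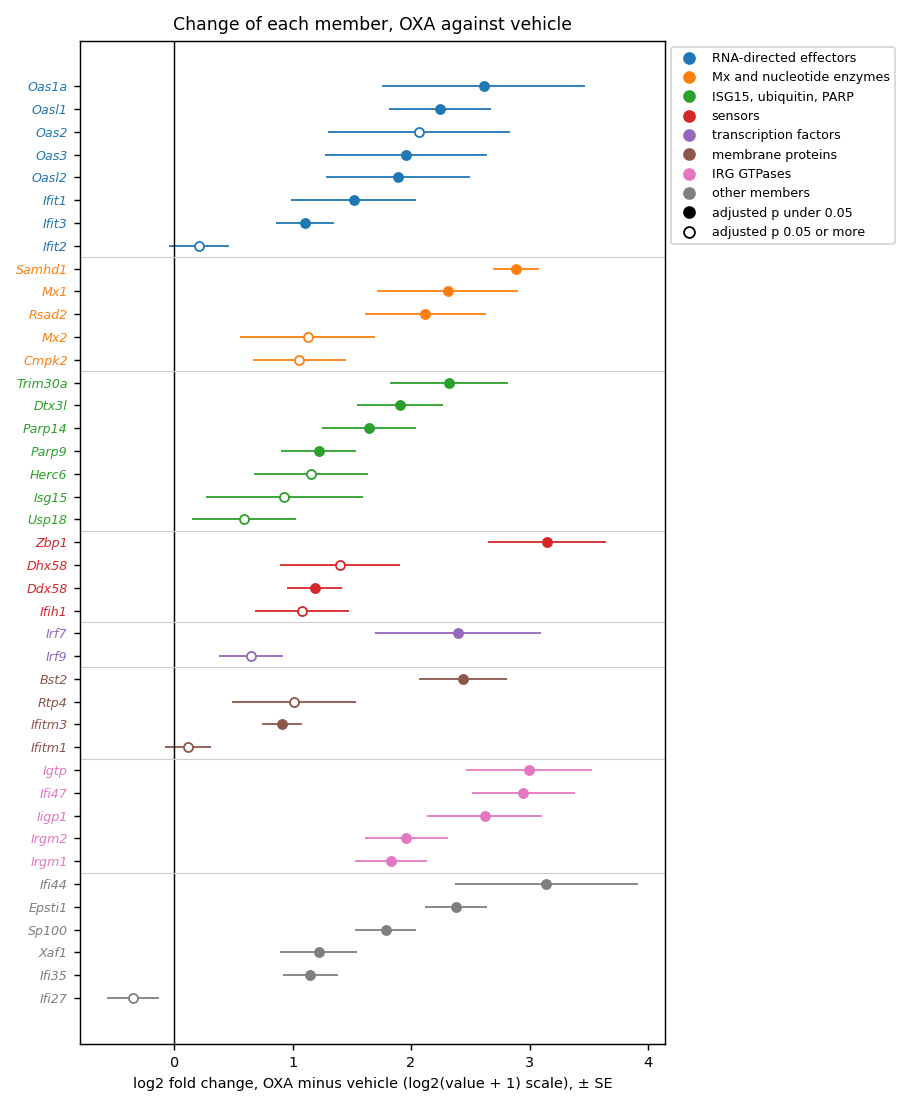
Log2 difference, OXA minus vehicle, of the 41 tested genes with limma's standard error, arranged by role; filled and open points separate genes that passed the adjusted p of 0.05 from those that did not. The 5 immunity-related GTPases all lie between 1.83 and 3.0, while Ifitm1, Ifit2 and Ifi27 lie near 0.

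The immunity-related GTPases rose together and without overlap. These proteins assemble on the vacuoles of intracellular parasites and bacteria and break or control them, and interferon gamma is their best-known inducer. All 5 that were tested passed, each with the 5 OXA libraries above the 5 vehicle libraries, with a median log2 difference of 2.62. Igtp (ENSMUSG00000078853.8, chr11:58199556-58207891) was at 42.1, 45.8, 136, 149.6 and 10.02 normalized counts in the vehicle libraries A1 to A5 and at 387, 435, 442, 437 and 453 in the OXA libraries C1 and D1 to D4, in that order. The mean rose from 76.8 ± 62.2 to 431 ± 25.5 (SD, n = 5), every OXA library was above every vehicle library, and the log2 difference was 3.0 ± 0.53 (SE, limma, adjusted p = 0.00088). In OXA it was the most even of all 41 genes between libraries. Ifi47 (ENSMUSG00000078920.3, chr11:49076587-49097274) was at 108, 48, 348, 198 and 60.1 normalized counts in A1 to A5 and at 865, 701, 1439, 862 and 819 in C1 and D1 to D4. From 152 ± 124 in vehicle the mean rose to 937 ± 288 in OXA; the OXA libraries all lay above the vehicle ones, and the log2 difference was 2.95 ± 0.43 (adjusted p = 0.000208). Iigp1, which attacks the parasite vacuole, rose by a log2 difference of 2.62 ± 0.48 (adjusted p = 0.0011, limma), and its OXA libraries ran from 428 to 566 normalized counts against 18.6 to 197 in vehicle. The regulatory members Irgm1 and Irgm2, which hold the effector GTPases inactive on the cell's own membranes, rose by 1.83 ± 0.31 (adjusted p = 0.000542) and 1.96 ± 0.35 (adjusted p = 0.000898). Tgtp1 was the gene that could not be tested: 1 read was found, in C1, and 0 in the other 9 libraries (two-sided exact permutation p = 1). Its near-identical copy Tgtp2 was also at 0 in every vehicle library and reached at most 3.19 normalized counts in OXA, so neither was above the level that 3 reads allow in these libraries. How reads matching both copies were counted was not given in the sources used here. Igtp and Irgm2 lie on the same strand with overlapping spans and share 162 exonic bases, so their counts may not be fully separate.

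The genes that act on nucleotides and the Mx genes, 5 in all, gave 3 calls, with Samhd1 in front. SAMHD1 breaks down deoxynucleotides, which starves viral DNA synthesis. Samhd1 (ENSMUSG00000027639.16, chr2:157097233-157135265) was at 249.6, 235, 447, 385 and 242 normalized counts in A1 to A5 and at 1951, 1864, 2614, 2242 and 2583 in C1 and D1 to D4. Samhd1 rose in the mean from 312 ± 97.9 to 2251 ± 347 and the OXA libraries all lay above the vehicle ones, for a log2 difference of 2.89 ± 0.19 (adjusted p = 3.22e-07). The lowest OXA library was more than 4 times the highest vehicle library, and this gene had the smallest adjusted p of the 41. Rsad2 (viperin), which makes a chain-terminating nucleotide, rose by 2.12 ± 0.51 (adjusted p = 0.00656), with 7.15 to 48.8 normalized counts in vehicle and 37.4 to 246 in OXA, so that the groups overlapped. Cmpk2, its neighbour on chromosome 12 and supplier of its substrate, did not pass. Cmpk2 (ENSMUSG00000020638.8, chr12:26469204-26480137) was at 49.3, 46.5, 38, 40.5 and 10.02 normalized counts in A1 to A5 and at 41.2, 78.2, 103, 54.6 and 84.6 in C1 and D1 to D4. With means of 36.9 ± 15.7 and 72.4 ± 24.6, the groups overlapped, and the log2 difference of 1.06 ± 0.39 did not pass (adjusted p = 0.0572). Cmpk2 passed in 4 of the 21 alternatives: without C1 (adjusted p = 0.0421), on CPM (0.0329), with a pseudocount of 5 (0.0478) and with DESeq2 on the recovered reads (0.0281). The Mx proteins are dynamin-like GTPases that trap viral nucleoproteins, and C57BL/6, like most laboratory strains, is known for a defective Mx1 allele. Mx1 rose by 2.31 ± 0.59 (adjusted p = 0.00961) from a low level, 0.97 to 20.2 normalized counts in vehicle and 13.4 to 42.6 in OXA. Mx2 (ENSMUSG00000023341.15, chr16:97535308-97560900) was at 1.03, 2.25, 4.87, 3.12 and 2.86 normalized counts in A1 to A5 and at 1.53, 9.95, 10.9, 5.75 and 12.8 in C1 and D1 to D4. Mx2 did not pass: the groups overlapped (means 2.83 ± 1.4 and 8.17 ± 4.51), at a log2 difference of 1.13 ± 0.57 (adjusted p = 0.152). It passed only in the fit without C1 (adjusted p = 0.0449).

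**Figure D2:**
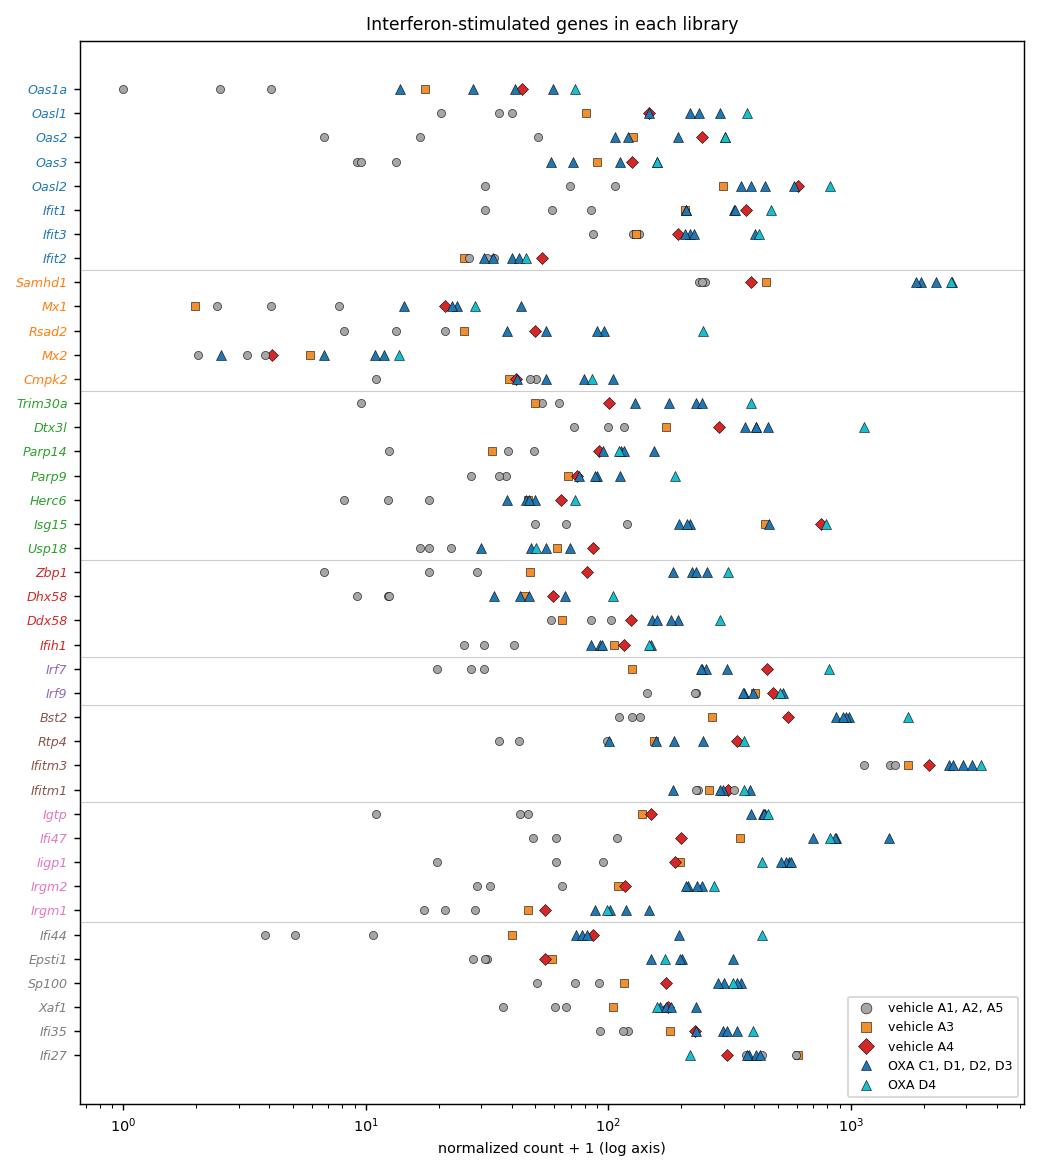
Normalized counts in each of the 10 libraries, on a log axis of the value plus 1, for the 41 tested genes in order of role, with symbols of their own for vehicle A3, vehicle A4 and OXA D4. For Samhd1 the 5 OXA points lie above all vehicle points, while for Isg15 the vehicle points span 48.8 to 749 and cover most of the OXA range.

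Among the effectors on RNA, 6 of 8 rose, yet in 1 alone, Ifit3, did the groups stand apart. The IFIT proteins bind viral RNA that lacks the host's cap marks, and the oligoadenylate synthetases make short adenylate chains in response to double-stranded RNA. Oasl1 (ENSMUSG00000041827.15, chr5:114923240-114938215) was at 39, 19.5, 79.9, 146 and 34.3 normalized counts in A1 to A5 and at 146, 217, 288, 236 and 374 in C1 and D1 to D4. Oasl1 rose in the mean from 63.7 ± 51.1 to 251.9 ± 84.9 and the groups overlapped, for a log2 difference of 2.24 ± 0.43 (adjusted p = 0.0015). A4 (145.94) lay just above C1 (145.80), which is the whole of the overlap. Oas1a (ENSMUSG00000052776.10, chr5:120895956-120907521) was at 3.08, 1.5, 16.6, 43.1 and 0 normalized counts in A1 to A5 and at 26.7, 12.8, 57.9, 40.2 and 71.8 in C1 and D1 to D4. The groups overlapped, with means of 12.8 ± 18.2 in vehicle and 41.9 ± 23.6 in OXA, and Oas1a rose with a log2 difference of 2.61 ± 0.85 (adjusted p = 0.0332). The highest vehicle value, in A4, exceeded 3 of the 5 OXA values, and A5 had no read. Ifit3 rose by 1.1 ± 0.25 (adjusted p = 0.00424), Oasl2 by 1.89 ± 0.61 (0.0308), Ifit1 by 1.52 ± 0.53 (0.0426) and Oas3 by 1.96 ± 0.68 (0.0439). Oas2 (ENSMUSG00000032690.16, chr5:120730033-120749853) was at 50.3, 15.8, 126, 244 and 5.72 normalized counts in A1 to A5 and at 106, 120.1, 302, 192 and 302 in C1 and D1 to D4. With means of 88.2 ± 98.8 and 205 ± 94.8, the groups overlapped, and the log2 difference of 2.07 ± 0.77 did not pass (adjusted p = 0.0562). Its 3 lowest vehicle libraries lay below every OXA library and A4 lay above 3 of them. Ifit2 (ENSMUSG00000045932.12, chr19:34550694-34576719) was at 32.9, 30.8, 24.4, 52.5 and 25.8 normalized counts in A1 to A5 and at 38.9, 41.9, 32.6, 29.7 and 44.7 in C1 and D1 to D4. Ifit2 did not pass: the groups overlapped (means 33.2 ± 11.3 and 37.6 ± 6.3), at a log2 difference of 0.21 ± 0.25 (adjusted p = 0.563). Its vehicle and OXA ranges were much alike, and the contrast with its neighbours Ifit1 and Ifit3 on chromosome 19 was not tested.

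Several of these calls lay close to the threshold, and fits with 1 library fewer lost them. Over the 10 such fits the log2 difference ran from 1.97 to 3.33 for Oas1a, from 1.08 to 1.98 for Ifit1, from 1.58 to 2.52 for Oas3 and from 1.37 to 2.44 for Oasl2. Oas1a was not called without any 1 of A1 (adjusted p = 0.0687), A2 (0.0766), A5 (0.0756), C1 (0.0526), D2 (0.0627), D3 (0.0598) or D4 (0.0783). Ifit1 was not called without A1 (0.0842), A2 (0.0987), A5 (0.0982), C1 (0.0536), D1 (0.0629), D2 (0.069) or D4 (0.0987). Oas3 lost its call without A1 (0.101), A2 (0.106), A5 (0.109), D2 (0.0818), D3 (0.0744) or D4 (0.0953). Oasl2 lost it without A1 (0.0642), A2 (0.0743), A5 (0.067), D2 (0.053) or D4 (0.0743). In the opposite direction, Oas2 passed without A3 (0.0388), without A4 (0.0106), on CPM (0.0397) and with a pseudocount of 5 (0.0487). None of Oas1a, Ifit1, Oas3 and Oasl2 was called by edgeR (adjusted p = 0.154, 0.147, 0.21 and 0.136) or by DESeq2 (0.216, 0.203, 0.271 and 0.189) on the recovered reads.

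Of the 7 genes of ISG15, ubiquitin and ADP-ribose transfer 4 rose. The ubiquitin ligase Dtx3l, its partner Parp9, the ADP-ribosyltransferase Parp14 and Trim30a, a ligase that damps innate signalling, rose, all 4 without overlap. Trim30a (ENSMUSG00000030921.17, chr7:104408725-104465193) was at 52.4, 61.5, 48.7, 99.7 and 8.59 normalized counts in A1 to A5 and at 229, 242, 177, 128 and 388 in C1 and D1 to D4. The OXA libraries all lay above the vehicle ones, with means of 54.2 ± 32.6 in vehicle and 233 ± 97.7 in OXA, and Trim30a rose with a log2 difference of 2.32 ± 0.50 (adjusted p = 0.0031). A5 was far below the other vehicle libraries. Dtx3l (ENSMUSG00000049502.17, chr16:35926211-35939151) was at 115, 71.2, 172, 285 and 98.7 normalized counts in A1 to A5 and at 404, 404, 453, 366 and 1137 in C1 and D1 to D4. From 149 ± 84.9 in vehicle the mean rose to 553 ± 328 in OXA; the OXA libraries all lay above the vehicle ones, and the log2 difference was 1.91 ± 0.36 (adjusted p = 0.00136). D4 was the highest OXA library for both genes. Parp9 rose by 1.22 ± 0.31 (adjusted p = 0.00976) and Parp14 by 1.64 ± 0.40 (adjusted p = 0.00656). Parp9 and Dtx3l face each other on opposite strands and share 458 exonic bases. Whether the counting used strand was likewise not given in the sources used here. Part of their reads could be shared. The other 3 genes, which encode the ubiquitin-like protein ISG15 and enzymes that remove or attach it, did not pass. Isg15 (ENSMUSG00000035692.6, chr4:156199124-156200818) was at 118, 48.8, 440.4, 749 and 65.8 normalized counts in A1 to A5 and at 195, 215, 459.9, 209.7 and 792 in C1 and D1 to D4. With means of 285 ± 305 and 374 ± 258, the groups overlapped, and the log2 difference of 0.93 ± 0.66 did not pass (adjusted p = 0.314). The 2 highest vehicle libraries, A3 and A4, reached the level of D2 and D4, the 2 highest in OXA. Usp18 (ENSMUSG00000030107.10, chr6:121245906-121271217) was at 21.6, 15.8, 60.4, 85.7 and 17.2 normalized counts in A1 to A5 and at 29, 46.9, 68.8, 54.6 and 49.5 in C1 and D1 to D4. Usp18 did not pass: the groups overlapped (means 40.1 ± 31.4 and 49.8 ± 14.4), at a log2 difference of 0.59 ± 0.44 (adjusted p = 0.335). USP18 is the protease that removes ISG15 and also restrains the type I receptor. Herc6 (ENSMUSG00000029798.11, chr6:57581000-57664932) was at 11.3, 17.2, 45.8, 62.8 and 7.15 normalized counts in A1 to A5 and at 37.4, 44.8, 48.9, 46 and 71.8 in C1 and D1 to D4. With means of 28.9 ± 24.3 and 49.8 ± 13, the groups overlapped, and the log2 difference of 1.16 ± 0.48 did not pass (adjusted p = 0.0872). HERC6 is the main ISG15 ligase in mice, and its gene passed without A3 (adjusted p = 0.0494) and without A4 (0.0202). The estimate for Herc6 lay close to that for Parp9, and the difference between these 3 genes and the 4 that rose was not tested.

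Of the 4 cytosolic sensors 2 rose. Zbp1 (ENSMUSG00000027514.14, chr2:173206312-173218923) was at 27.7, 17.2, 46.8, 81 and 5.72 normalized counts in A1 to A5 and at 219.8, 229.6, 253, 184 and 311 in C1 and D1 to D4. Zbp1 rose in the mean from 35.7 ± 29.5 to 239.6 ± 47.2 and the OXA libraries all lay above the vehicle ones, for a log2 difference of 3.15 ± 0.50 (adjusted p = 0.000365). ZBP1 recognises left-handed nucleic acids and can start necroptosis. Its log2 difference was the largest of the 41 genes, and the lowest OXA library, D3, was above the highest vehicle library, A4. Ddx58 (RIG-I), a sensor of viral RNA ends, rose by 1.19 ± 0.23 (adjusted p = 0.00176), with 57.2 to 123 normalized counts in vehicle and 151 to 287 in OXA. The related helicases did not pass. Ifih1 (ENSMUSG00000026896.14, chr2:62595498-62646255) was at 29.8, 39.8, 104, 115 and 24.3 normalized counts in A1 to A5 and at 91.6, 93.1, 148, 84.3 and 147 in C1 and D1 to D4. With means of 62.6 ± 43.4 and 113 ± 31.9, the groups overlapped, and the log2 difference of 1.08 ± 0.40 did not pass (adjusted p = 0.0542). Ifih1 (MDA5) senses long double-stranded RNA. Dhx58 (ENSMUSG00000017830.15, chr11:100694584-100704271) was at 11.3, 8.25, 43.9, 58.2 and 11.4 normalized counts in A1 to A5 and at 32.8, 46.2, 65.2, 42.1 and 104 in C1 and D1 to D4. Dhx58 did not pass: the groups overlapped (means 26.6 ± 22.9 and 58 ± 28.2), at a log2 difference of 1.40 ± 0.51 (adjusted p = 0.0507). Dhx58 (LGP2) tunes the other helicases, and its reads could include some of its antisense partner Dhx58os, with which it shares 141 exonic bases. Both passed on CPM (0.0331 and 0.0349), and Dhx58 did with a pseudocount of 5 (0.0489). Both also passed without A3 (adjusted p = 0.0239 for Ifih1 and 0.0299 for Dhx58) and without A4 (0.0158 and 0.0131).

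The 2 transcription factors of the set gave 1 call. Irf7 (ENSMUSG00000025498.15, chr7:141262406-141266481) was at 29.8, 26.2, 125, 449.8 and 18.6 normalized counts in A1 to A5 and at 244, 251.6, 308, 241 and 816 in C1 and D1 to D4. Irf7 rose in the mean from 129.8 ± 184 to 372 ± 249.5 and the groups overlapped, for a log2 difference of 2.40 ± 0.70 (adjusted p = 0.0195). IRF7 is the factor that amplifies interferon alpha genes. A4 lay above 4 of the 5 OXA libraries, and D4 was far above the other OXA libraries. The call was lost without A1 (adjusted p = 0.0511), A2 (0.0507), A5 (0.0529) or D4 (0.0542), and edgeR did not make it (0.143). Irf9 (ENSMUSG00000002325.15, chr14:55603571-55610330) was at 230.1, 144, 402, 478 and 228 normalized counts in A1 to A5 and at 363, 359.7, 527, 394 and 511 in C1 and D1 to D4. Irf9 did not pass: the groups overlapped (means 296 ± 138 and 431 ± 81.6), at a log2 difference of 0.65 ± 0.27 (adjusted p = 0.089). IRF9 is the main DNA-recognising part of the complex that it forms with STAT2. Irf9 passed without A4 (adjusted p = 0.0239) and on CPM (0.0389).

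Membrane proteins that block virus entry or release divided as well. Bst2 (ENSMUSG00000046718.8, chr8:71533955-71537456) was at 124, 109, 266, 552 and 134 normalized counts in A1 to A5 and at 978, 864, 952, 929.9 and 1716 in C1 and D1 to D4. From 237 ± 187 in vehicle the mean rose to 1088 ± 354 in OXA; the OXA libraries all lay above the vehicle ones, and the log2 difference was 2.44 ± 0.37 (adjusted p = 0.000282). BST2 (tetherin) holds budding virus particles on the cell surface. Ifitm3 (ENSMUSG00000025492.6, chr7:141009286-141010770) was at 1444, 1132, 1722, 2096 and 1525 normalized counts in A1 to A5 and at 2905, 2535, 3172, 2629.9 and 3458 in C1 and D1 to D4. Ifitm3 rose in the mean from 1584 ± 356 to 2940.0 ± 382 and the OXA libraries all lay above the vehicle ones, for a log2 difference of 0.91 ± 0.17 (adjusted p = 0.00113). The IFITM proteins stop fusion of incoming viruses, and Ifitm3 had the smallest log2 difference of the 28 genes that rose. Ifitm1 (ENSMUSG00000025491.14, chr7:140967221-140970125) was at 234, 229, 260.2, 312 and 331 normalized counts in A1 to A5 and at 382, 296, 185, 288 and 361 in C1 and D1 to D4. With means of 273 ± 46 and 302 ± 77.1, the groups overlapped, and the log2 difference of 0.12 ± 0.19 did not pass (adjusted p = 0.682). Its libraries were mixed in order, with the lowest of all 10 in OXA. Rtp4 (ENSMUSG00000033355.6, chr16:23520291-23614522) was at 97.6, 42, 153, 339 and 34.3 normalized counts in A1 to A5 and at 185, 99.5, 244, 156 and 361 in C1 and D1 to D4. Rtp4 did not pass: the groups overlapped (means 133 ± 124 and 209 ± 99.5), at a log2 difference of 1.01 ± 0.53 (adjusted p = 0.164). RTP4 is a receptor chaperone with antiviral action, and its gene passed without A4 (adjusted p = 0.0255).

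Of the 6 remaining genes 5 rose. Ifi44 (ENSMUSG00000028037.13, chr3:151730622-151749960) was at 4.11, 9.75, 39, 85.2 and 2.86 normalized counts in A1 to A5 and at 72.5, 76.8, 196, 80.5 and 428 in C1 and D1 to D4. Ifi44 rose in the mean from 28.2 ± 35.1 to 171 ± 153 and the groups overlapped, for a log2 difference of 3.14 ± 0.77 (adjusted p = 0.00757). Its highest library, D4, stood well above the rest. Epsti1 (ENSMUSG00000022014.15, chr14:77904239-78002957) was at 26.7, 30.8, 57.5, 54 and 30.1 normalized counts in A1 to A5 and at 201, 149, 326, 196 and 171 in C1 and D1 to D4. The OXA libraries all lay above the vehicle ones, with means of 39.8 ± 14.7 in vehicle and 209 ± 68.8 in OXA, and Epsti1 rose with a log2 difference of 2.38 ± 0.26 (adjusted p = 2.23e-05). For Ifi44 A4 lay above 3 of the OXA libraries, while the 10 values of Epsti1 fell into separate ranges. Sp100, a nuclear body protein that silences viral genomes, rose by 1.79 ± 0.26 (adjusted p = 0.000181), Ifi35 by 1.15 ± 0.23 (0.00213) and Xaf1, which promotes cell death, by 1.22 ± 0.33 (0.012). Ifi27 (ENSMUSG00000064215.13, chr12:103434211-103440539) was at 431, 367, 607, 307 and 591 normalized counts in A1 to A5 and at 379, 405, 373, 421 and 217 in C1 and D1 to D4. With means of 461 ± 134 and 359 ± 81.8, the groups overlapped, and the log2 difference of -0.35 ± 0.22 did not pass (adjusted p = 0.257). Ifi27 encodes a mitochondrial protein, and it was the only 1 of the 41 tested genes with a negative estimate.

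The vehicle libraries differed among themselves far more in these genes than in most. The SD of log2 values over the 5 vehicle libraries had a median of 1.02 for the 41 genes and 0.299 for all genes tested, and 40 of the 41 lay above that all-gene median. It ran from 0.24 (Ifitm1) to 2.19 (Oas1a). A wide vehicle spread was not particular to these genes. The median SD in vehicle was 1.15 for NK cell markers, 1.44 for B and plasma cell markers and 0.79 for T cell markers. It was 0.74 for close relatives of the 42 genes, but 0.349 for monocyte and macrophage markers and 0.339 for neutrophil markers. Over the OXA libraries the median SD was 0.424 for the 41 genes and 0.403 for all genes tested, from 0.09 (Igtp) to 1.12 (Ifi44). The spread was larger in vehicle than in OXA for 37 of the 41 (90.2%), against 33.6% of all genes tested. In OXA the median SD was 0.663 for NK, 0.787 for B and plasma and 0.329 for T cell markers, each under its vehicle value. For monocyte and macrophage (0.449) and neutrophil markers (0.835) it was above. These SDs are of log2 values, and most of the 41 genes were lower in vehicle. On the count scale the SD was 97.9 in vehicle and 347 in OXA for Samhd1, but 62.2 and 25.5 for Igtp. The part of level and counting error was not tested. The highest vehicle value was 42.6 times the lowest for Oas2, 29.8 times for Ifi44, 24.2 times for Irf7 and 15.4 times for Isg15, but 1.9 times for Samhd1 and 1.85 times for Ifitm3. Ratios in the lowest genes also carry counting error, since a few reads made up the low vehicle values of Ifi44.

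**Figure D3:**
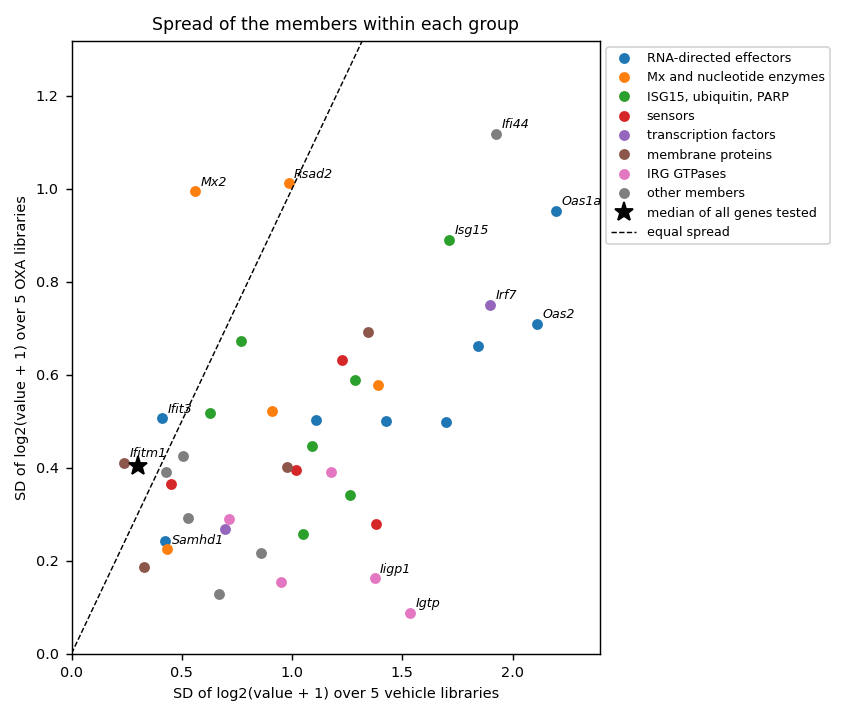
Standard deviation of log2 values among the 5 OXA libraries against that among the 5 vehicle libraries, 1 point per gene for the 41 tested genes, with a dashed line for equal spread and a star at the medians over all genes tested. Nearly all points (37 of 41) lie on the side of larger spread in vehicle.

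The same libraries held the extremes in most of the genes. A4 was the highest vehicle library in 33 of the 41 (80.5%, against 14.0% of all genes tested) and A3 in 6. Together A3 and A4 were the top 2 in 32 of the 41 (78.0%), against 6.97% of all genes tested. A5 was the lowest in 21 (51.2%, against 26.8%) and A2 in 14. Against the vehicle median of each gene, the median log2 difference was 1.26 in A4, 0.80 in A3, -0.25 in A2 and -0.69 in A5. A4 exceeded the lowest OXA library in 22 of the 41 (53.7%, against 76.1% of all genes tested) and the OXA median in 17 (41.5%, against 51.0%). A3 exceeded the lowest OXA library in 13 (31.7%, against 73.5%), and A1, A2 and A5 did so in 4, 5 and 3, against 75.2%, 75.6% and 70.4% of all genes. In each vehicle library, A4 included, the share of these genes above the lowest OXA library was thus under that of all genes tested, and among the 5 it was highest in A4. Without A4, 34 of the 41 rose (13.6% of all genes) and 26 were free of overlap (12.9%), and without A3 the numbers were 32 (13.5%) and 18 (12.8%). A3 and A4 were picked out by these same values, and leaving out a high vehicle library lowers the vehicle mean. More calls were thus partly built in, and overlap could only shrink or stay. The same holds for single genes that passed without A3 or A4. Without A5, the lowest vehicle library, 23 rose (14.1%). The count was also 23 without A1 (13.8%) and without A2 (13.7%). A4 was the deepest library and A5 the shallowest vehicle library, so depth moved with these extremes; its part in the spread was not tested. A3, with 7351691 reads, was shallower than A2, with 8521982.

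Immune cell markers also differed among the vehicle libraries. The summed level of 11 T cell markers in A1 to A5 was 128, 136, 152, 158 and 83 normalized counts, and that of 10 NK cell markers was 28.8, 16.5, 46.8, 50.9 and 27.2. For 11 monocyte and macrophage markers the sums were 2853, 2231, 3977, 3080.2 and 3072. A4 was the highest of the 5 for T and NK markers, followed by A3, and A3 was the highest for macrophage markers. Other lists had other orders. B and plasma cell sums were 156, 688, 227, 42.1 and 136, lowest in A4 and highest in A2, and conventional dendritic sums were 55.5, 72.8, 64.3, 65.4 and 51.5, highest in A2. Neutrophil sums (342, 331, 436, 333 and 428) and eosinophil sums (41.1, 43.5, 58.5, 38.4 and 48.6) were highest in A3, while A4 was lowest for eosinophil markers and near the lowest for neutrophil markers. The part of immune cell number in the vehicle spread was not tested.

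The role groups did not share 1 order of libraries. Averaged on the log2 scale and set against the median vehicle library, the 8 RNA effectors stood at 2.07 in A4 and 1.183 in A3, and at 1.47 to 2.62 in the OXA libraries. For the 2 factors A4 stood at 2.46, above 4 of the OXA libraries, which ran from 1.82 to 2.94. The 5 immunity-related GTPases stood at 1.32 in A3 and 1.23 in A4, well under the OXA libraries at 2.55 to 2.83. A4 also reached the OXA range for the ISG15, ubiquitin and PARP genes (1.58, with OXA from 1.27) and the membrane genes (1.22, with OXA from 0.99). Like the GTPases, the sensors (1.49, with OXA from 1.64), the Mx and nucleotide genes (0.75, with OXA from 1.04) and the remaining genes (1.17, with OXA from 1.60) stayed under it in A4. These are descriptions of 5 libraries, and the difference between role groups was not tested.

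**Figure D4:**
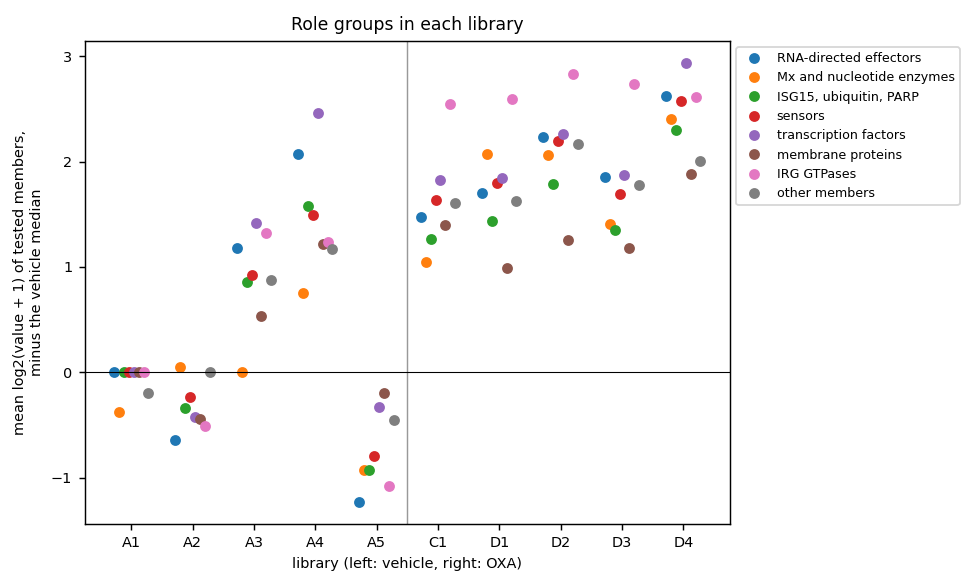
Mean log2 level of each role group in each library, relative to the group's median over the vehicle libraries, with 1 point per role group and library. In A4, 4 of the 8 role groups (RNA effectors, factors, ISG15 with ubiquitin and PARP, and membrane) reach the range of the OXA libraries, and in every OXA library the immunity-related GTPases lie above 2.5.

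Among the OXA libraries D4 was the highest in 25 of the 41 (61.0%, against 28.2% of all genes tested) and D2 in 11 (26.8%, against 24.2%), while C1 was the lowest in 17 (41.5%, against 10.4%). D2 and D4 are the shallowest 2 libraries of the study, and the part of depth in this order was not tested. Without D4, 23 of the 41 rose (14.1% of all genes), without D2 24 (16.0%), without C1 28 (12.9%), without D1 27 (15.3%) and without D3 26 (14.2%). With D2, D4 and A5 all left out, 19 rose (14.3% of all genes tested) and the median log2 difference was 1.09. In that fit of 4 vehicle and 3 OXA libraries the calls of Ifi44 (adjusted p = 0.0841), Mx1 (0.0564), Parp9 (0.0841) and Xaf1 (0.0544) were lost besides those of Ifit1, Oas1a, Oas3, Oasl2 and Irf7.

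Transcripts of the interferons themselves were at or near the detection limit. Of the 21 ligand genes listed, 19 were at 0 in all 10 libraries, among them every interferon alpha gene listed, Ifnb1, the epithelial interferons Ifnk and Ifne, and the lambda genes Ifnl2 and Ifnl3. A count of 0 allows up to 3 reads, or 1.56 (A4) to 5.43 (D2) normalized counts in a library, so lower levels were not detectable at this depth. Ifng was read in A4 (1.04 normalized counts), C1 (5.34), D1 (2.84) and D3 (3.83) and at 0 in the other 6 libraries (two-sided exact permutation p = 0.167). Ifng reads were thus found in 1 vehicle and 3 OXA libraries. The last ligand gene, Ifnz, had 1 read in each of A1 and A2 and 0 elsewhere.

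Receptor chains moved in more than 1 direction. Of 6 chains 3 rose and 1 fell, beside 15.7% and 14.2% of all genes tested. Their median log2 difference was 0.60 beside -0.01 over all genes tested. Ifngr1 (ENSMUSG00000020009.13, chr10:19591949-19610529) was at 249, 229, 332, 253 and 313 normalized counts in A1 to A5 and at 364, 415, 451, 419 and 698 in C1 and D1 to D4. Ifngr1 rose in the mean from 275 ± 44.9 to 469 ± 131 and the OXA libraries all lay above the vehicle ones, for a log2 difference of 0.74 ± 0.18 (adjusted p = 0.00638). It encodes the chain that binds interferon gamma. Ifngr2 (ENSMUSG00000022965.8, chr16:91547072-91565923) was at 312, 299.98, 346, 283 and 341 normalized counts in A1 to A5 and at 485, 487, 603, 457 and 452 in C1 and D1 to D4. The OXA libraries all lay above the vehicle ones, with means of 316 ± 26.9 in vehicle and 497 ± 61.5 in OXA, and Ifngr2 rose with a log2 difference of 0.65 ± 0.13 (adjusted p = 0.0016). IFNGR2 is the signalling partner, and both genes were higher in 5 of 5 OXA libraries. Ifnar1 (ENSMUSG00000022967.13, chr16:91485238-91507741) was at 19.5, 25.5, 11.7, 24.9 and 20.03 normalized counts in A1 to A5 and at 39.7, 30.6, 32.6, 29.7 and 89.4 in C1 and D1 to D4. From 20.3 ± 5.55 in vehicle the mean rose to 44.4 ± 25.5 in OXA; the OXA libraries all lay above the vehicle ones, and the log2 difference was 1.0 ± 0.33 (adjusted p = 0.0365). Without any 1 of A1 (adjusted p = 0.0641), A3 (0.0913), A5 (0.0589), C1 (0.0662) or D4 (0.072) this type I receptor chain was not called. Ifnar2 (ENSMUSG00000022971.18, chr16:91372783-91405889) was at 28.8, 25.5, 26.3, 27 and 27.2 normalized counts in A1 to A5 and at 38.9, 42.6, 34.4, 33.5 and 52.7 in C1 and D1 to D4. With means of 27 ± 1.21 and 40.4 ± 7.77, every OXA library was above every vehicle library, and the log2 difference of 0.55 ± 0.21 did not pass (adjusted p = 0.0658). This partner chain of Ifnar1 had separate ranges in the groups and still missed the threshold; on CPM it passed (0.0315), as it did with DESeq2 (0.048). Ifnlr1 (ENSMUSG00000062157.6, chr4:135686287-135708481) was at 37, 33.8, 76, 48.8 and 61.5 normalized counts in A1 to A5 and at 16.8, 7.82, 21.7, 21.1 and 27.1 in C1 and D1 to D4. The OXA libraries all lay below the vehicle ones, with means of 51.4 ± 17.6 in vehicle and 18.9 ± 7.21 in OXA, and Ifnlr1 fell with a log2 difference of -1.43 ± 0.34 (adjusted p = 0.0058). IFNLR1 is the chain that confers the response to interferon lambda, mostly on epithelial cells, and its 5 OXA values lay under all vehicle values.

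Of the 17 genes of interferon signalling 8 rose and 0 fell, with a median log2 difference of 0.50. Of all genes tested 15.7% rose and 14.2% fell. Stat2 (ENSMUSG00000040033.16, chr10:128270559-128293149) was at 63.7, 45, 84.8, 148 and 35.8 normalized counts in A1 to A5 and at 122, 116, 212, 169 and 204 in C1 and D1 to D4. From 75.4 ± 44.7 in vehicle the mean rose to 165 ± 44.7 in OXA; the groups overlapped, and the log2 difference was 1.25 ± 0.33 (adjusted p = 0.011). A3 and A4 were again the top vehicle libraries, and A4 lay above C1 and D1. Without the 3 shallowest libraries Stat2 was not called (adjusted p = 0.105). The feedback inhibitor Socs1, which blocks JAK kinases, rose by 2.59 ± 0.18 (adjusted p = 5.18e-07), the phosphatase gene Ptpn6 by 2.03 ± 0.22 (2.03e-05), and the factors Irf1 and Irf8 by 2.19 ± 0.27 (5.67e-05) and 1.89 ± 0.24 (6.03e-05). Socs1 had 43.5 to 79.98 normalized counts in vehicle and 288 to 409 in OXA, so that it was more even among the vehicle libraries than Stat2.

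Among nucleic acid sensing genes, 16 of 18 were tested, 7 rose and 1 fell. For this list and the next, the shares of all genes tested were 15.7% higher and 14.2% lower. Tmem173 (STING), the adaptor of the DNA route, rose by 1.57 ± 0.30 (adjusted p = 0.00126). Mavs, the adaptor of RIG-I and MDA5, fell, with a log2 difference of -0.88 ± 0.18 (0.00232), with 5 of 5 OXA libraries under the vehicle range. The RNA-editing enzyme gene Adar rose by 0.95 ± 0.23 (0.007). Without the 3 shallowest libraries Adar was not called (0.0658). Close relatives of the 42 genes, such as other Sp, Trim30, Herc, Parp and Ifitm genes, numbered 32, of which 21 were tested, 10 rose and 1 fell, with a median log2 difference of 0.94. Sp110 rose by 1.96 ± 0.23 (adjusted p = 3.54e-05), Sp140 by 1.52 ± 0.31 (0.00219), Trim30d by 2.11 ± 0.34 (0.000443) and Herc4 by 1.29 ± 0.20 (0.000376). The 1 that fell, Ifitm10, was named after its value was seen, with a log2 difference of -1.10 ± 0.31 (0.0156).

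Of 9 genes best known as targets of interferon gamma, 7 passed the filter. All 7 rose, against 15.7% of all genes tested, and each was without overlap, against 12.0%. Their median log2 difference was 2.59. Besides Socs1 and Irf1 these included Cxcl9, a chemokine for T cells. Cxcl9 (ENSMUSG00000029417.9, chr5:92321047-92328079) was at 8.22, 1.5, 93.5, 15.6 and 1.43 normalized counts in A1 to A5 and at 607, 434, 605, 369 and 979 in C1 and D1 to D4. Cxcl9 rose in the mean from 24.1 ± 39.3 to 598 ± 237 and the OXA libraries all lay above the vehicle ones, for a log2 difference of 5.86 ± 0.78 (adjusted p = 9.36e-05). In vehicle A3 stood far above A4, the reverse of their order for Isg15 and Irf7. Ciita, the master factor of MHC class II genes, rose by 2.27 ± 0.33 (adjusted p = 0.00017). The 2 listed targets that did not pass the filter were Cxcl11 (means of 1.99 in vehicle and 2.95 in OXA) and Nos2 (2.28 and 4.16). Ido1, with means of 1.93 and 19.2, passed the filter only through OXA. Which targets could be tested thus depended in part on their rise. Socs1 and Irf1 are counted in the signalling list as well.

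Markers of immune cells that can make or answer interferon were higher in the same OXA libraries. The filter took the mean over all 10 libraries, so a marker low in vehicle could be tested only if it was high in OXA. The counts of tested markers that rose therefore lean upwards. Over all genes tested 15.7% rose. Of 11 T cell markers 10 rose and 0 fell, and their sum was 83 to 158 normalized counts in vehicle and 548 to 712 in OXA. Icos, Trbc2, Lck and Cd2 rose by 3.05, 2.16, 2.50 and 1.90 on the log2 scale. Of 10 NK cell markers 7 were tested and 7 rose, with sums of 16.5 to 50.9 in vehicle and 200.2 to 418 in OXA. Vehicle means were under 5 for Gzma (2.43), Gzmb (3.89), Klrd1 (4.05), Klre1 (1.90) and Prf1 (1.71), which passed the filter through OXA. Klrb1c was at 0 in every vehicle library and at 0 to 7.98 in OXA. Gzma rose by 4.87, Gzmb by 4.13, Klrk1 by 2.32 and Nkg7 by 2.23. Ncr1 of the same list was at 0 in every OXA library and at 0.97 in vehicle A3, and Eomes did not pass the filter. Cd8a and Cd8b1 of the T cell list rose as well, by 2.25 and 1.73. Which cells carried these transcripts was not tested. Of 11 monocyte and macrophage markers 10 rose, with sums of 2231 to 3977 and 4886 to 9123, led by Ccr2 at 3.19 and Ly6c2 at 3.80. Of the 7 B and plasma cell markers tested 6 rose (sums of 42.1 to 688 and 1341 to 3942), as did conventional dendritic markers in 4 of 7 (51.5 to 72.8 and 159.9 to 233), neutrophil markers in 4 of 5 (331 to 436 and 1184 to 4971) and eosinophil markers in 1 of 2 (38.4 to 58.5 and 103 to 628). Vehicle means were also under 5 for Igha, Mzb1, Clec9a, Ccr7 and Retnlg, among others. S100a9 made up most of the neutrophil sum (275 to 372 in vehicle, 926 to 3689 in OXA). Cxcr2 did not rise (log2 difference -0.18), and Ly6g was at 1.42 or less in every library. Ear6 made up most of the eosinophil sum (27.5 to 45.8 in vehicle, 85.2 to 511 in OXA). Siglecf and Prg2 reached at most 7.24 and 7.66 in OXA. Mpo of the neutrophil list and Ccr3 and Epx of the eosinophil list were at 0 in every vehicle library. In OXA, Mpo was read in C1 (0.76) and D3 (2.87) alone and Epx in C1 (1.53) alone, while Ccr3 was at 0.96 to 19.91.

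Plasmacytoid dendritic cells are the classic source of type I interferon. Of the 5 tested genes of their list 0 rose and 1 fell, beside 15.7% and 14.2% of all genes tested. The count says little about these cells. Cox6a2 was at 3447 to 3970 and Tcf4 at 459 to 813 normalized counts in vehicle, far above Siglech at 0.97 to 9.75. The 1 that fell, Ly6d, was named after its value was seen; it had a log2 difference of -0.79 ± 0.28 (adjusted p = 0.0427) and is also made by squamous epithelium. Its call was lost in 10 of the 21 alternatives, among them CPM (0.0519) and the fits without A3 (0.0972), A4 (0.0558), A5 (0.101), C1 (0.0921), D1 (0.0861) or D3 (0.0757). Klk1 and Cd300c were at 0 in every vehicle library, Cd300c also in every OXA library. Siglech (ENSMUSG00000051504.18, chr7:55768178-55779225) was at 7.19, 9.75, 0.97, 5.71 and 2.86 normalized counts in A1 to A5 and at 13, 12.1, 10.9, 11.5 and 4.79 in C1 and D1 to D4. With means of 5.3 ± 3.47 and 10.4 ± 3.25, the groups overlapped, and the log2 difference of 1.03 ± 0.52 did not pass (adjusted p = 0.151). Siglech is the most specific of that list, and its highest vehicle value, in A2, was above D4. Bst2 also marks these cells in mice. Of 8 epithelial markers 1 rose and 3 fell, and of 9 muscle markers 0 rose and 2 fell (sums of 77727 to 101760.0 and 35640.1 to 137937). Among these the falls of Krt4 (adjusted p = 0.0344) and Myh4 (0.0224) were lost in 9 and 8 of the 21 alternatives, and the other 4 calls in 0. In whole tissue, more cells of a type and more RNA per cell cannot be told apart, and the part of cell makeup in the rise of the antiviral genes was not tested.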

How the data were processed

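RNA of whole esophagus, extracted with TRIZOL, was made into CEL-Seq libraries, per the labels' protocols. Per the submitters' processing notes, which state neither role nor order, the tools were HTSeq 0.11.2, DESeq2 1.18.1, TopHat2 2.1.0, Bowtie2 2.2.6, cutadapt 1.10, Trim Galore and FastQC 0.11.5, on build GRCm38. The deposited values are a signal, normalized counts per gene and library: each is a whole multiple of a step constant within its library, so that 100% of values divided by it came out whole within a tolerance of 0.006. Annotation release, strand setting, use of molecular identifiers and handling of multi-mapping reads were not given in the sources used here. Floors of 3 reads cover counting error only. No 2 libraries held identical values.

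Limma 3.58.1 (R 4.3.3) with a mean-variance trend was fitted on log2(value + 1) to the 14712 genes whose mean over the 10 libraries was at least 5, two-sided, with Benjamini-Hochberg adjustment over all of them and calls under 0.05. A gene with a mean under 5 in 1 group passed this filter only through the other group. The added 1 understates the change of low genes. For some genes the limma difference, which is one of mean log2 values, was still larger than that of DESeq2. Examples are Oas1a (2.61 against 1.68) and Oas3 (1.96 against 1.18). Unless another tool is named, every adjusted p is from the limma fit. Alternatives were other pseudocounts, filters and scalings, edgeR 4.0.16 and DESeq2 1.42.0 on the recovered reads, no trend, fits without single libraries or the 3 shallowest and, added after the data were seen, the number in the titles as a block. The tests were tested on simulated data. A limit on the share of false calls was set there for limma and edgeR, but not for DESeq2. Named genes were all 42, with values in every library for the called gene of largest change and of smallest p in each role group, for every gene not called, and for named receptor genes and Stat2, plus up to 4 genes of smallest p in each other list. Values of 2 genes of those other lists are not reported here. The genes and lists were chosen with earlier results of these data known.

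Gene positions are those of the table. Against GENCODE M21, 53229 identifiers matched with their version, and the positions of 19418 of them (92.7% of protein-coding genes) reached exactly 300 bases past the annotated 3′ end. Of the 42 genes 41 matched and 40 were extended; whether reads there were counted was not given in the sources used here. Promoter windows are from RefSeq.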

Additional observations from a re-analysis of the deposited data

Results flagged for a closer look

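Within each group of 5 libraries the highest and lowest value of every tested gene was compared with its neighbour, and a value was singled out where that gap exceeded 0.71 of the group's whole range on the log2 scale. This was met in 6 of 82 groups, 1 in vehicle and 5 in OXA, and chance gives about 1 in 20. In D4, Irf7 was at 815.73 normalized counts, with the other OXA libraries at 241.34 to 307.78. Bst2 in D4 was at 1716.08 (other OXA libraries 864.34 to 977.82), and Dtx3l in D4 was at 1136.6 (365.84 to 452.61). Ifi27 in D4 was the lowest of its group at 217.1 (372.95 to 421.39). In C1, Igtp was the lowest at 387.01, close below the other OXA libraries (435.01 to 453.36). In vehicle, Cmpk2 was the lowest in A5 at 10.02 (38 to 49.31).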

How the results depend on the processing

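Of the 28 genes that rose, 19 kept their call in all 21 alternatives, and 0 genes were called lower in any. Under other pseudocounts, filters and scalings and without the trend 24 to 33 rose. Leaving out 1 library gave 23 to 34. The median log2 difference was 1.19 with edgeR, 1.23 with DESeq2 and 1.09 without the 3 shallowest libraries; the cause was not tested. Isg15 was the only tested gene of the 41 whose direction turned, at -0.0195 without the 3 shallowest libraries (adjusted p = 0.987). Of the 13 genes that did not pass, 8 passed in some alternative. DESeq2 gave no adjusted p for Irf7, which is left out of its lost calls. The depth of D2, D4 and A5 limits the low genes most, since 1 read there was worth more than 1.4 normalized counts. Numbers 1 to 4 stand in the titles of both groups, and no label says that they pair libraries. With the number as a replicate block, a fit added after the data were seen, 29 of the 41 rose and 0 fell, the median log2 difference was 1.497, and Dhx58 was the 1 of the 41 whose call changed (adjusted p = 0.0411); among the other genes followed, those of Krt4 (0.191), Ly6d (0.167) and Csf3r (0.0644) were lost. Deviations from the group means correlated at -0.23 to 0.19 across genes in the 5 same-numbered pairs, 1 of the 10 libraries correlated best with its own number, and the numbers were not taken as pairs.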

Other observations

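Other genes shared the high values of A3 and A4. Among 11871 genes with a mean of at least 20 normalized counts, 31 had both libraries more than 2-fold above each of A1, A2 and A5. Of these, 14 were among the 42 antiviral genes and 17 were not, and 13 of the 17 rose in OXA, against 15.7% of all genes tested. The mean was over all 10 libraries, so genes low in vehicle entered only through OXA and their rise was partly built in. Among them were Gzmb (0 to 10.72 in vehicle, 44.05 to 86.9 in OXA) and Fcgr4 (1.43 to 12.46 and 74.7 to 132.82). The 17, chosen after their values were seen, also included Cxcl10, the guanylate-binding gene Gbp2b, the chemokine gene Ccl8, the helicase gene Ddx60, Uba7 (the enzyme that activates ISG15), Nlrc5 (a factor of MHC class I genes), Slfn2 and the Apol9 pair. Apol9b was at 7.19, 5.25, 74.05, 162.04 and 7.15 normalized counts in A1 to A5 and at 38.17 to 189.97 in OXA, and it did not pass (log2 difference 1.64 ± 0.83, adjusted p = 0.153). Ifi27l2a, at 311.24, 175.49, 810.68, 1598.03 and 236.09 in vehicle, did not pass either (0.89 ± 0.54, adjusted p = 0.234). Uba7, by contrast, was at 42.07 or less in vehicle and at 63.85 or more in every OXA library (2.01 ± 0.38, adjusted p = 0.00127).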
